A study of Mus musculus with 32 samples.

Results

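The regions described here are H3K4me1 peaks that mouse HoxB8 bone-marrow progenitors carried after introduction of CSF3R T618I and still carried when Asxl1 was targeted as well. A member is an autosomal H3K4me1 peak of the first CSF3R library that overlaps a peak in the other 2 CSF3R libraries, no peak of either control library, and a peak of both libraries with CSF3R T618I and the Asxl1 guide. Of 18557 autosomal peaks in that first library, 1014 (5.46%) met the rule. H3K4me1 in the control, CSF3R and double libraries therefore chose the members, and its values in those libraries are a description.

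H3K4me1 is a methyl mark on histone H3 that lies at enhancers, active or primed, and on the flanks of promoters. H3K27me3 is written by Polycomb repressive complex 2 and H2AK119ub by Polycomb repressive complex 1, and both accompany silenced developmental and lineage genes. ASXL1 is a cofactor of BAP1, the deubiquitinase that removes ubiquitin from H2A. CSF3R is the receptor of granulocyte colony-stimulating factor, which drives neutrophil production, and its T618I form signals without ligand through JAK and STAT proteins and is found in chronic neutrophilic leukaemia.

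CUT&Tag, in which an antibody-tethered transposase releases DNA next to a chromatin mark, was run for 3 marks in 4 genotype groups with 10 libraries per mark. The control cells (n = 2) carried a non-targeting guide RNA and the empty pMICH vector. The Asxl1 guide cells (n = 3) carried the guide labelled B2 and the empty vector, the CSF3R cells (n = 3) the non-targeting guide and pMICH-CSF3R-T618I, and the double cells (n = 2) both the B2 guide and the CSF3R T618I vector. All groups were grown with stem cell factor, immortalised by HoxB8 that is kept active by estrogen, and deprived of estrogen for 48 h before the assay. The labels do not say whether replicates came from separate cultures or transductions, or whether a group is 1 clone, so p-values measure only the spread between these libraries. The extent of Asxl1 editing cannot be read from peak lists. H3K4me1 lists covered 26.6 to 47.2 Mb, H2AK119ub lists 11.8 to 39.1 Mb and H3K27me3 lists 4.73 to 53.0 Mb. The H3K27me3 library of the second Asxl1 guide replicate stood apart, with 45373 peaks against 6071 to 22610 in the other 9, and counts that rest on the H3K27me3 fit are given with and without it. Sequencing depth is unknown, because the deposited lists hold positions only. As background for the cell identity, list genes nearest to at least 1 H3K4me1 region of the first CSF3R library were counted. They were 14 of 15 primary granule and early neutrophil genes and 32 of 33 late neutrophil genes. For monocyte, macrophage and dendritic genes they were 15 of 26, for stem and progenitor genes 14 of 24. Mast cell, basophil and eosinophil genes had 15 of 25, erythroid and megakaryocyte genes 11 of 22 and lymphoid genes 6 of 24. Of all 21900 protein-coding genes, 6002 were nearest to at least 1 such region.

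Most members lay away from gene starts. A total of 34 (3.35%) had their centre within 1 kb of an annotated start of a protein-coding gene and 701 (69.1%) more than 10 kb away, compared with 2.99% and 65.3% of all 18557 regions. A total of 481 members (47.4%) lay inside a gene, against 57.5% of all regions. A promoter window of 300 bases, from 250 before to 50 after a start, was touched by a member at 27 genes and lay whole inside a member at 11, among them Adam19, Ambp, Cd101, Saa3, Serpinb9g, Sirpb1a, Sirpb1c, Tmem268 and Ugt1a6a. Because the nearest gene is defined by distance alone, it names the location of a region and not its target.

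The promoters of 6 such genes are shown. Except at Adam19, H3K4me1 or Polycomb values described below are those of the member that touches the printed window. The Adam19 widths and fractions below are those of other members inside the gene. The first 4 lie whole inside a member: Saa3 (acute-phase serum amyloid A) at chr7:46715627-46715926 on the minus strand, Adam19 (a membrane metalloprotease) at chr11:46127654-46127953 on the plus strand, Sirpb1c (a signal-regulatory protein family receptor) at chr3:15848438-15848737 on the minus strand, and Cd101 (a myeloid and lymphoid surface immunoglobulin) at chr3:101029504-101029803 on the minus strand. The Runx1 window, chr16:92826025-92826324 on the minus strand, shared 274 bases with a member, and the Il13 window, chr11:53634653-53634952 on the minus strand, shared 148. Sequences are RefSeq's for GRCm38.p6, the build behind mm10, and read 5′ to 3′ along the gene. Capitals mark matches on either strand to TTCNNNGAA (STAT), GAGGAAGT (ETS), TTGCNNAA (C/EBP) or TGANTCA (AP-1), motifs that do not overlap here.
Saa3: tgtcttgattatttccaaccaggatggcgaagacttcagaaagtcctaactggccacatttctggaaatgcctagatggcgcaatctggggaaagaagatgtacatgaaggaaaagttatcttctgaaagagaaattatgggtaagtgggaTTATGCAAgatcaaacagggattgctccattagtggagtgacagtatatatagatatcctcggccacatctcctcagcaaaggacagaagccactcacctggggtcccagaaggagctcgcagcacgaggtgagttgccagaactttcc
Adam19: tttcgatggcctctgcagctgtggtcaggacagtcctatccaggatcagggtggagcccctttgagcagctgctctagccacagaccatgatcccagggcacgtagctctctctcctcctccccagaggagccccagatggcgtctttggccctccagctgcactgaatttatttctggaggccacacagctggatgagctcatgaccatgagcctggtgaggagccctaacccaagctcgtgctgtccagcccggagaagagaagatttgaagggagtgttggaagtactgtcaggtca
Sirpb1c: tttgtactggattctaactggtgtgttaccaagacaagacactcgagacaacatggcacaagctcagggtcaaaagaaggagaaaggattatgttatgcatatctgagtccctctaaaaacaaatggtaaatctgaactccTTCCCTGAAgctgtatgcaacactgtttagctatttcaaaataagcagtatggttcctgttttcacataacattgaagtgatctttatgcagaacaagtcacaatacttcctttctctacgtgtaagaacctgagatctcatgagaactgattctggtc
Cd101: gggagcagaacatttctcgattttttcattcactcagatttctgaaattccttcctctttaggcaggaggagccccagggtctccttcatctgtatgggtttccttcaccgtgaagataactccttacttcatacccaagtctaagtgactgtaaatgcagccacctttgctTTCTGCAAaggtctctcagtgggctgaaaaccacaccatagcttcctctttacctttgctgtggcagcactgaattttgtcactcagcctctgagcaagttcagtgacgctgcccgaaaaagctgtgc
Runx1: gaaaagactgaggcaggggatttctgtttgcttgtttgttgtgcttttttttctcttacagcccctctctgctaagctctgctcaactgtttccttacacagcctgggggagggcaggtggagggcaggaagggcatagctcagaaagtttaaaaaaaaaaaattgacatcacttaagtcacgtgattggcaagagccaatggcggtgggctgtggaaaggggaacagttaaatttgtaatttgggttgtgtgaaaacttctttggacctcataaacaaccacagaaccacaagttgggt
Il13: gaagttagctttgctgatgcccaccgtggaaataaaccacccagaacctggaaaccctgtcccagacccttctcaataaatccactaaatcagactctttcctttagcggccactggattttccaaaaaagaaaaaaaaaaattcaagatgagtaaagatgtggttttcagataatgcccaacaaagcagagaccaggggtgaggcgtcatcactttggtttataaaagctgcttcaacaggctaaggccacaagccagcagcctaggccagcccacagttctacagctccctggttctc

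Among these 6 windows, those of Saa3 and Cd101 each held 1 C/EBP match and that of Sirpb1c 1 STAT match, and the other 3 held none of the 4 motifs. Over all 30 promoter windows touched by a member, 7 (23.3%) held TGANTCA, 4 (13.3%) TTGCNNAA, 3 (10.0%) TTCNNNGAA and 3 (10.0%) GAGGAAGT. Among 20085 promoter windows of the same length the shares were 7.06%, 10.3%, 7.78% and 3.18%. Among the 589 windows touched by any region of the first CSF3R library they were 14.4%, 17.0%, 10.5% and 8.49%. Some of these windows are alternative starts of 1 gene, and a match is a description of letters, not a bound site.

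Members were of moderate width. Their median width in the first CSF3R library was 900 bp, compared with 1150 bp over all regions and 2650 bp for the 8849 regions found in every control, CSF3R and double library. The 346 regions that met the same CSF3R and control conditions but had no peak in either double library had a median of 400 bp, and the 357 found in 1 double library only a median of 550 bp. At the edge of the rule, 22 members lay within 500 bp of a control peak, 7 of them abutting one, and the smallest overlap of any member with a required library was 50 bp. Just outside it, 253 regions present in all CSF3R and double libraries overlapped a control peak by at most 200 bp.

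H3K4me1 coverage in CSF3R and double libraries was above that of the other groups at the member centres and also 10 kb before them. At the centre, peaks covered 82.5% ± 9.56 (SD, n = 3) of members in CSF3R libraries, 78.1% ± 10.3 (n = 2) in double libraries, 6.66% ± 3.09 (n = 3) in Asxl1 guide libraries and 0.0197% ± 0.014 (n = 2) in control libraries. At 10 kb before the centre the shares were 14.4% ± 1.76, 14.1% ± 2.76, 6.31% ± 1.35 and 6.92% ± 0.354 in the same order. The rule fixed the values at the centre. Those at 10 kb are not free of it, because regions near each other can be members together. Whether the gain extends beyond the members was not tested.

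**Figure D1:**
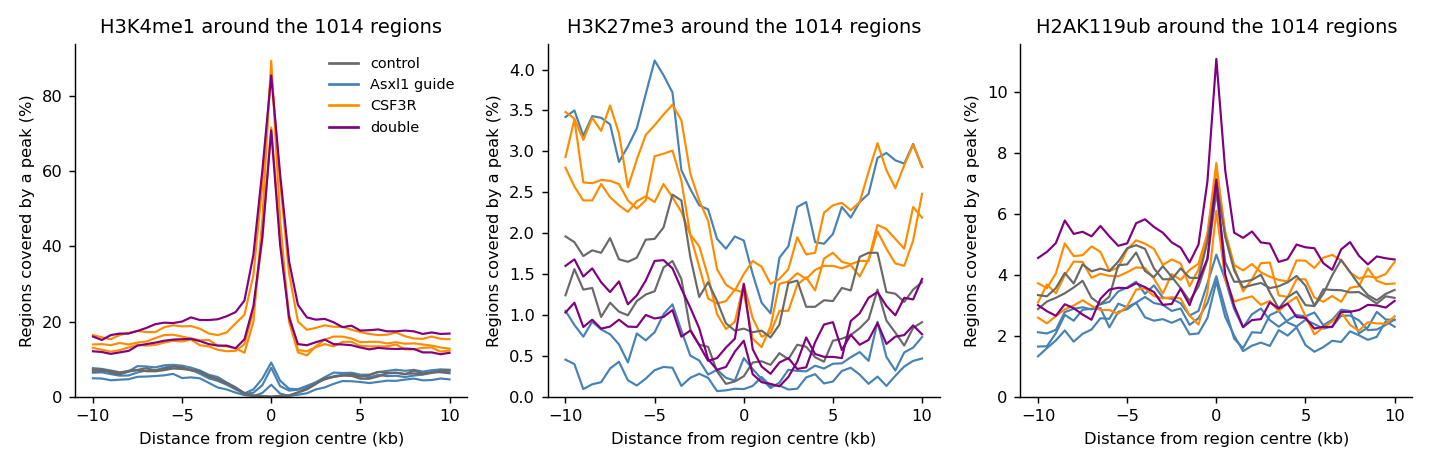
Share of the 1014 regions covered by a peak (y axis, %) by distance from the region centre (x axis, kb) for H3K4me1, H3K27me3 and H2AK119ub, with 1 line per library coloured by group. H3K4me1 in CSF3R and double libraries peaks at the centre by construction of the rule and stays above control and Asxl1 guide libraries out to 10 kb; the H3K27me3 mean of each group is lower at the centre than at 10 kb before it, and the H2AK119ub mean of each group is higher there.

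Linking members less than 50 kb apart gave 713 loci. A total of 495 members (48.8%) shared a locus with another member and 519 were alone, while 92.1% of all 18557 regions, a much denser set, shared a locus when linked in the same way. The densest locus held 9 members in 95.0 kb of chromosome 1 across the Ugt1a genes, which encode UDP-glucuronosyltransferases that conjugate lipophilic compounds. Those 9 were of 11 H3K4me1 regions in that span. Next came Hlx, a homeobox transcription factor of blood and gut, with 6 members in 118 kb. A locus shared by Abtb2, an ankyrin and BTB domain gene, and Nat10 also held 6, as did one shared by Kcnn3, a calcium-activated potassium channel, and Adar, an RNA-editing enzyme. Lgals3, the carbohydrate-binding galectin-3 of macrophages and activated myeloid cells, had its 4 members in a locus of 6 that spanned 47.5 kb. At 124 of the 728 nearest genes every region of the first CSF3R library was a member. Among them were Ugt1a6a (6 of 6 regions), Prr5l, a regulator of the mTOR complex (4 of 4), Trpm6, a magnesium channel (4 of 4), and Sirpb1c (4 of 4). Adam19 had 5 members among 6 regions, and Oscar, a collagen receptor of osteoclasts and myeloid cells, 4 among 5. The other genes with 5 members were Abtb2, Nabp1, a single-stranded DNA binding protein, Nt5e, the CD73 ectoenzyme that makes adenosine, Spef2, a sperm flagellar protein, Agtpbp1, a tubulin deglutamylase, and Gramd4.

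The widths of single regions varied between libraries as follows. At Saa3 the single region nearest the gene, chr7:46714451-46721950, measured 7500, 5400 and 5150 bp in the CSF3R libraries and 4750 and 4350 bp in the double libraries, and no peak overlapped it in the control or Asxl1 guide libraries. The double values all lay below the CSF3R values there. The widest member, 9400 bp at chr7:78863751-78873150 and 21.2 kb from the start of Det1, a ubiquitin ligase component, measured 9300 to 9450 bp in all 5 CSF3R and double libraries. A 300 bp peak overlapped it in 1 Asxl1 guide library. At Adam19 the widest of 5 members, chr11:46080401-46086400 inside the gene, measured 6000, 5950 and 7450 bp with CSF3R and 6750 and 4950 bp in double cells, which overlap. None of the 5 Adam19 members had a peak in any Asxl1 guide library.

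Tarm1, Sirpb1c and Cd101, named after their values were seen, are receptor or surface protein genes of blood cells. A 7600 bp member at chr7:3467751-3475350 lay 31.1 kb from Tarm1, a receptor of myeloid cells, and measured 2800 to 9300 bp in CSF3R and 7250 and 6650 bp in double libraries. The Sirpb1c promoter region, chr3:15848301-15850650, measured 2350, 850 and 2750 bp with CSF3R and 2100 and 650 bp in double cells. The Cd101 region, chr3:101029501-101031050, measured 1550, 1000 and 1350 bp with CSF3R, 2400 and 1350 bp in double cells, and had short peaks of 250 and 300 bp in 2 Asxl1 guide libraries. Ambp, the precursor of a plasma protease inhibitor, carried a member over its start that measured 6550 to 6950 bp with CSF3R and 6300 and 6700 bp in double cells. RNA of these genes is not analysed here.

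**Figure D2:**
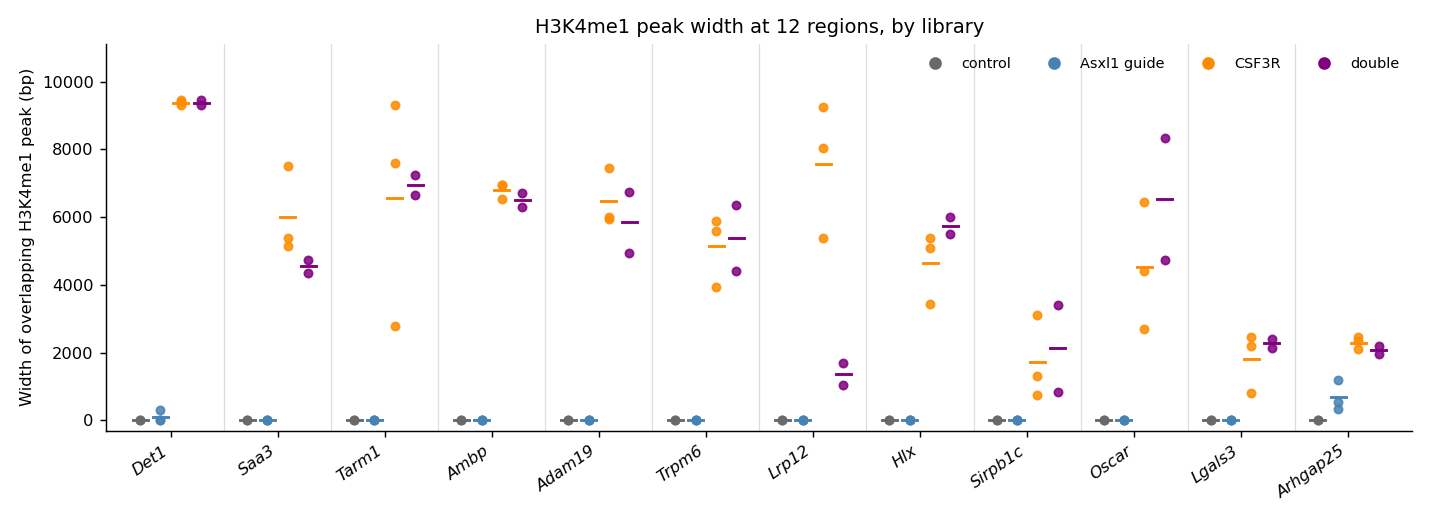
Width of the H3K4me1 peak overlapping 12 members (y axis, bp; 0 means no overlapping peak), with 1 point per library, coloured by group, and a bar at the group mean; each gene is shown by its widest member. Control points are at 0 by the rule, Asxl1 guide points are at 0 except at Det1 and Arhgap25, and Lrp12 is much narrower in double than in CSF3R libraries.

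Peak width in double cells was not uniformly smaller or larger than with CSF3R alone. The group mean was wider in double cells at 536 members (52.9%) and narrower at 472 (46.5%), with a median ratio of 1.06. The double libraries differed from each other, with median widths at the members of 1500 and 750 bp, while the CSF3R libraries had 900, 800 and 1450 bp. Both double libraries were wider than all 3 CSF3R libraries at 173 members and narrower than all 3 at 130. At the member chr15:39970601-39978650, 30.6 kb from the end of Lrp12, an LDL-receptor family gene, widths were 8050, 5400 and 9250 bp with CSF3R and 1700 and 1050 bp in double cells. At the member chr17:29432651-29435900, 56.5 kb from Pim1, a kinase and STAT5 target, they were 3250, 3600 and 3800 bp against 1200 and 250 bp. The opposite order was seen 38.8 kb from Dnajb8, inside the gene Eefsec, where CSF3R widths were 850, 2150 and 2850 bp and double widths 13550 and 12450 bp. At Il13, which encodes a type 2 cytokine, they were 1150, 250 and 350 bp with CSF3R and 2450 bp in both double libraries.

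The Asxl1 guide libraries were not used by the rule, and they largely lacked these regions. A peak overlapped 200, 65 and 163 of the 1014 members in the 3 Asxl1 guide libraries, which is 14.1% ± 6.87 (SD, n = 3), compared with 65.5% ± 7.06 of all regions. All regions are not a like set, because 70.7% of them on average had a control peak, and members had none by the rule. Other regions that met the same CSF3R and control conditions had lower shares than the members. These were 7.81% ± 4.18 for regions in neither double library and 7.83% ± 4.33 for those in 1 double library. A total of 737 members (72.7%) had a peak in none of them and 37 (3.65%) in all 3. The peaks that were there were short, with median widths of 375, 300 and 300 bp. The second Asxl1 guide library, which had the fewest members, also had the shortest H3K4me1 list of the 3, 26.6 Mb. Leaving out the first of the 3 lowered the number of members with a peak in at least 1 library from 277 to 182, and requiring overlap with at least 50% of the member lowered it to 129. Among the 346 regions lost in double cells, 84.4% had no peak in any Asxl1 guide library.

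The members present in all 3 Asxl1 guide libraries included the widest at Crbn, Col5a1, Ugt1a10, Arhgap25 and Ugt1a6a. The Arhgap25 region, in a gene for a Rac-specific GTPase-activating protein of blood cells, measured 1200, 350 and 550 bp with the Asxl1 guide, 2450, 2100 and 2350 bp with CSF3R and 2200 and 1950 bp in double cells. The Asxl1 guide values lay below all others, while CSF3R and double values overlapped. In contrast, the Gtf3c5 region, near a gene for an RNA polymerase III factor, was wider with the Asxl1 guide (2650, 2050 and 2550 bp) than with CSF3R (300, 1650 and 1750 bp), and measured 2900 bp in both double libraries.

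Members nearest to genes of the neutrophil and cytokine programmes were counted. None of the 50 regions nearest primary granule and early neutrophil genes was a member, and 3 of 95 nearest late neutrophil genes were, at Retnlg, Stfa2l1 and Csf3r itself. Each of these 3 was small: the Csf3r member, chr4:126001901-126002150, lay 22.6 kb from the gene's start and measured 250 bp in 4 of the 5 CSF3R and double libraries and 4050 bp in the third CSF3R library. Of 171 regions nearest JAK-STAT and cytokine signalling genes, 11 (6.43%) were members, at 9 genes that included Socs1 and Lif with 2 each, Pim1 and Jak2. SOCS1 is a feedback inhibitor of JAK signalling and LIF a cytokine of the interleukin-6 family. Of 183 regions nearest myeloid transcription factors, 11 (6.01%) were members, 4 of them at Runx1, 3 at Klf2, and 1 each at Bach1 and Stat5a. The JAK-STAT and transcription factor shares lie near the 5.46% over all regions. The lower neutrophil counts rest on 50 and 95 regions and were not tested.

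Small lists showed higher shares from few regions. Mast cell, basophil and eosinophil genes had 5 members among 37 regions (13.5%), at 5 genes that included Alox5, Hdc, Il13 and Il4, and lymphoid genes had 3 among 22 (13.6%), all at Il7r, the interleukin-7 receptor. Monocyte, macrophage and dendritic genes had 3 of 56, at Zeb2 and Irf8. Stem and progenitor genes had 5 of 110, chemokine genes 4 of 88 and adhesion and phagocyte receptor genes 3 of 147. Genes of the Polycomb, Asxl and Bap1 complexes had 5 of 83, of which 3 were more than 48 kb from Eed, a core subunit of Polycomb repressive complex 2. None of the 24 regions nearest erythroid and megakaryocyte genes was a member. Hox cluster genes, Hoxa9 included, had no H3K4me1 region nearest to them, so they could have no member. Asxl1, Cebpe, Meis1 and Myc had no member either. None of these shares was tested.

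Polycomb marks were more frequent around members than around H3K4me1 regions in general, without a test of the difference. In 10 kb windows centred on each region, an H3K27me3 peak was found in at least 1 of the 10 libraries at 188 members (18.5%), against 9.67% of all 18557 regions. The figures for H2AK119ub were 468 (46.2%) and 35.6%. A total of 519 members (51.2%) had neither mark in any library, and 161 (15.9%) had both. The share of windows with a peak was higher for the members than for all regions in each of the 10 libraries of each mark. The regions lost in double cells had H3K27me3 at 25.4% and H2AK119ub at 44.8%, so these levels were not seen at the kept regions alone. Windows close to gene starts had more of both marks: coverage of at least 0.2 of the window in at least 2 libraries was reached for H3K27me3 at 7.03% of members within 10 kb of a start and 2.31% of those 10 to 100 kb away, against 2.36% and 1.2% of all regions.

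**Figure D3:**
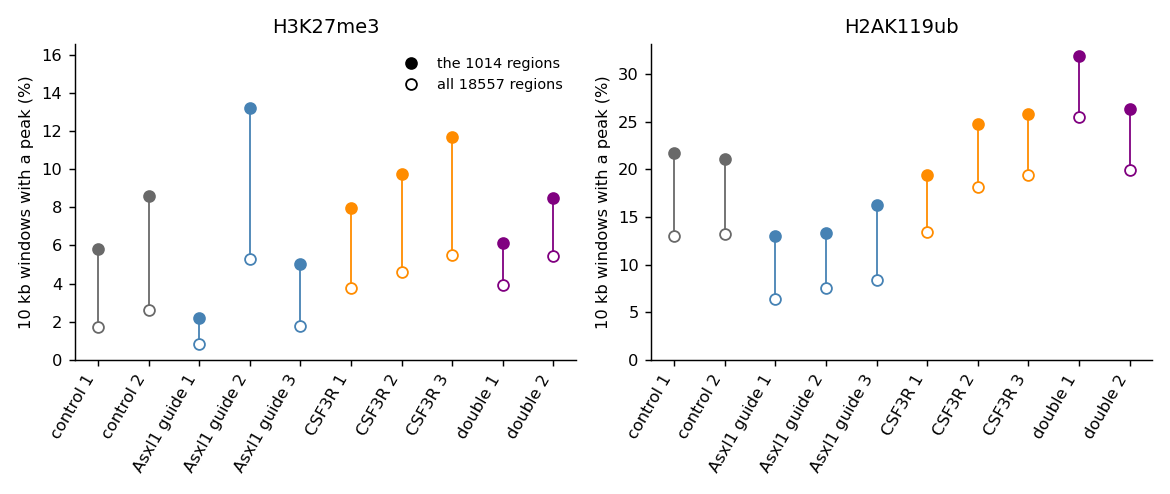
Share of 10 kb windows that contain a peak (y axis, %) in each library of H3K27me3 and H2AK119ub, coloured by group. Filled points are the 1014 regions and open points all 18557 regions of the first CSF3R library, joined by a line for each library; the filled point is the higher in all 20 libraries.

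The share of member windows with an H3K27me3 peak was 7.2% ± 1.95 (SD, n = 2) in control, 6.8% ± 5.72 (n = 3) in Asxl1 guide, 9.82% ± 1.86 (n = 3) in CSF3R and 7.29% ± 1.68 (n = 2) in double libraries. Control (5.82% and 8.58%), CSF3R (7.99% to 11.7%) and double libraries (6.11% and 8.48%) overlapped one another. Overlap of the Asxl1 guide group with them rests on its second library, as its values were 2.17%, 13.2% and 5.03%. Without the second the mean was 3.6% ± 2.02 (n = 2), with both libraries below every library of the other groups. For H2AK119ub the shares were 21.4% ± 0.424, 14.2% ± 1.82, 23.3% ± 3.44 and 29.1% ± 3.96, with every Asxl1 guide library below and every double library above the rest. Over all genomic positions, H2AK119ub lists covered 11.8 to 16.7 Mb in Asxl1 guide and 19.9 to 21.2 Mb in control libraries. They covered 18.8 to 28.7 Mb in CSF3R and 22.6 to 39.1 Mb in double libraries. The Asxl1 guide lists were thus the shortest, while CSF3R and double lists overlapped in length. The part of covered length in the shares was not tested.

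For a test at single regions, the fraction of each 10 kb window covered by peaks was fitted with limma over all regions that reached a fraction of 0.2 in at least 2 libraries, with p adjusted by Benjamini-Hochberg over all of them and called under 0.05. For H3K27me3, 37 of 1014 members passed that filter, among 280 regions in all, and 8 of the 37 passed through CSF3R libraries only. For H2AK119ub, 90 members passed, among 1151 regions, with 3 through CSF3R libraries only, 1 through double libraries only and 1 through control libraries only. The other 977 and 924 members were not tested. A region that passed only through the group where it is high had to differ, so such regions, where named, are given by their values and their calls are no support. Counts of calls and of refits below still include them, among members and among all tested regions. The counts do not describe the members at large. Windows of members less than 10 kb apart overlap, so calls at such members can rest on the same stretch of mark.

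H3K27me3 was higher with CSF3R than in control at 7 of the 37 members and lower at 0, against 25.4% of all tested regions higher and 0% lower. The median difference was 0.13 of the window over members and 0.163 over all tested regions. The 7 were near Cdh1 (E-cadherin), Gtf3c5, Zcchc24, 6430548M08Rik, Smap2 (an Arf GTPase-activating protein), Il13 and Naaa (a lysosomal acid amidase). Of these, 5 (Cdh1, Gtf3c5, 6430548M08Rik, Smap2 and Il13) passed the filter through CSF3R libraries only. At the Cdh1 region, chr8:106605901-106608550 inside the gene, the fractions were 0.422, 0.365 and 0.448 with CSF3R and 0.03 and 0.15 in control. At the Il13 region, chr11:53633651-53634800, which reaches into the promoter printed above, they were 0.335, 0.14 and 0.435 with CSF3R and 0 and 0.04 in control. The other 2 regions passed through more than 1 group. At Naaa the fractions were 0.388, 0.412 and 0.403 with CSF3R and 0.2 and 0.228 in control, a difference of 0.187 (SE 0.0589, adjusted p = 0.0462 by limma), with a call in 2 of 10 fits that left out 1 library and adjusted p = 0.0575 by limma without peaks that overlap an IgG peak. At Zcchc24 they were 0.338, 0.343 and 0.367 with CSF3R and 0.07 and 0.16 in control, a difference of 0.234 (SE 0.0527, adjusted p = 0.0216 by limma), which turned to -0.0833 (adjusted p = 0.309 by limma) without such peaks. CSF3R H3K27me3 lists covered 31.3 to 42.2 Mb and control lists 15.9 to 22.7 Mb. The count was 0 without the first control library or the third CSF3R library, 1 without the second control library, 3 without the third Asxl1 guide library, 4 without either double library and 14 without the second Asxl1 guide library.

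H3K27me3 was lower in double than in CSF3R cells at 12 of the 37 members and higher at 0, against 31.1% of all tested regions called, 27.1% lower and 3.93% higher. They included regions near Cdh1, Gtf3c5, Scrt1 (a neural zinc-finger repressor), 6430548M08Rik, Mc1r (the melanocortin receptor), Il13, Tgfbi (a matrix protein secreted by macrophages), Egr3, Naaa, Sema6b and Smap2. Of the 12, 7 passed the filter through CSF3R libraries only, those near Cdh1, Gtf3c5, Il13, 6430548M08Rik, Egr3, Sema6b and Smap2. The double libraries had 0 and 0.025 at Cdh1, and 0 in both at Gtf3c5 and Il13. Scrt1 and Mc1r were among those that passed through more than 1 group. At Scrt1 the double libraries had 0.147 and 0.253 against 0.58, 0.532 and 0.642 with CSF3R, a difference of -0.385 (SE 0.0725, adjusted p = 0.0104 by limma). At Mc1r they had 0.225 and 0.065 against 0.39, 0.4 and 0.445, a difference of -0.267 (SE 0.0646, adjusted p = 0.0199 by limma). This comparison and that of CSF3R with control share the CSF3R libraries, and high values in those 3 libraries enter both.

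The comparison of double with Asxl1 guide cells, which shares no library with that of CSF3R with control, gave 0 of 37 members called by limma, against 4.29% of all tested regions, and 1 member at an unadjusted p under 0.05. That member, near Zcchc24, had 0.28 and 0.295 in double and 0.055, 0.14 and 0.05 in Asxl1 guide libraries, a difference of 0.206 (SE 0.0527, adjusted p = 0.0664 by limma). The test of whether the CSF3R effect differed between guides, the interaction, called 0 members and 0% of all tested regions, and 4 members had an unadjusted p under 0.05. For Scrt1 it was -0.216 (SE 0.103, adjusted p = 0.277 by limma). The count for double against CSF3R was 0 without either double library, 4 without the third CSF3R library and 22 without the second Asxl1 guide library. Without that Asxl1 guide library, double against Asxl1 guide called 3 members and the interaction 0.

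**Figure D4:**
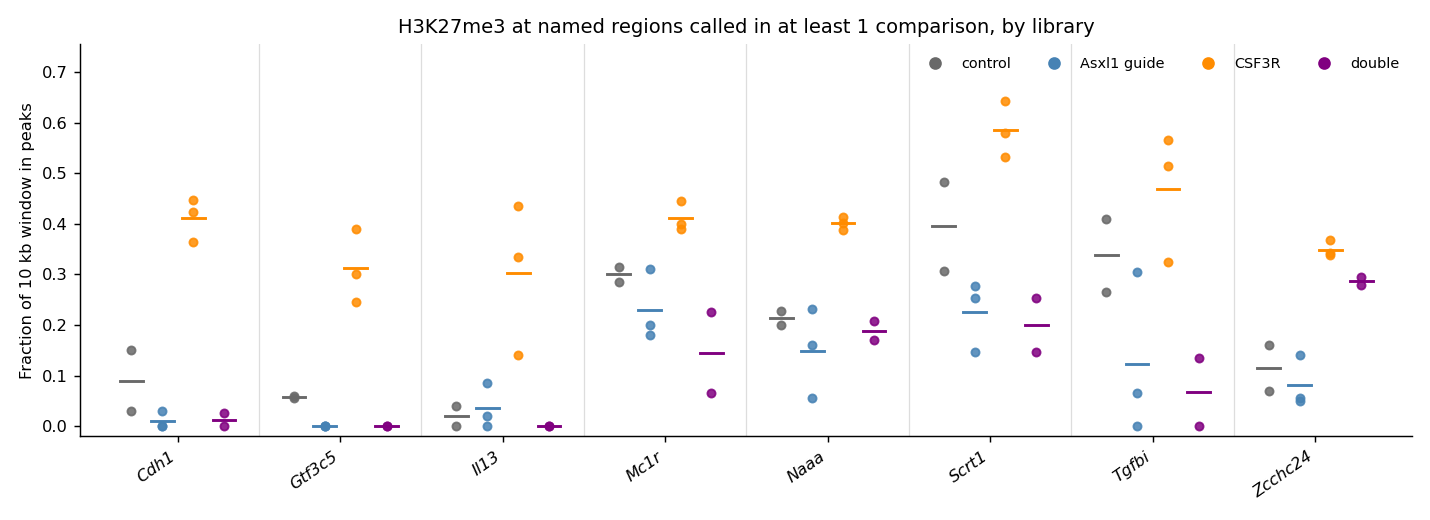
Fraction of the 10 kb window covered by H3K27me3 peaks (y axis) at 8 members called in at least 1 comparison, with 1 point per library, coloured by group, and a bar at the group mean. The 3 CSF3R points lie above both double points at each region (Cdh1, Gtf3c5 and Il13 passed the filter through CSF3R libraries only), and Gtf3c5 is at 0 in all Asxl1 guide and double libraries.

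Compared with Asxl1 guide cells, H2AK119ub was higher in double cells at 16 of 90 members and lower at 6, against 44% of all tested regions called, 42.7% higher and 1.22% lower. Of these 22, 1 (Nos1ap) passed the filter through double libraries only. The largest rises were near Prss34, a serine protease of mast cells and basophils, Runx1, a transcription factor of blood stem and progenitor cells, Elovl6, a fatty-acid elongase, and Trib2, a pseudokinase that degrades C/EBP alpha. At the Runx1 region, chr16:92826051-92826350 over the promoter printed above, the fractions were 1 and 0.585 in double, 0.155, 0 and 0.035 in Asxl1 guide, 0.415, 0.375 and 0.47 in CSF3R and 0.11 and 0.095 in control libraries. The groups did not overlap apart from control with Asxl1 guide. The difference between double and Asxl1 guide was 0.729 (SE 0.105, adjusted p = 0.000844 by limma). The same region carried H3K4me1 peaks of 1000 and 950 bp in 2 of 3 Asxl1 guide libraries and of 250 and 200 bp in the double libraries.

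At Prss34 the fractions were 1 and 0.565 in double, 0.065, 0 and 0.025 in Asxl1 guide, 0.27, 0.285 and 0.268 in CSF3R and 0.035 and 0.065 in control libraries, and double exceeded Asxl1 guide by 0.752 (SE 0.102, adjusted p = 0.000664 by limma). After removal of H2AK119ub peaks that overlap an IgG peak, that difference was 0.253 with adjusted p = 0.146 and the difference from CSF3R, 0.508 before, was 0.00833 with adjusted p = 0.979 (both by limma). At the region 61.2 kb from Elovl6 they were 0.762 and 0.623 in double, 0, 0 and 0.055 in Asxl1 guide, 0.398, 0.325 and 0.453 in CSF3R and 0.14 and 0.07 in control libraries, and the difference was 0.674 (SE 0.0588, adjusted p = 0.000137). At the region nearest Trib2, which lies 319 kb from it, both double libraries (0.675 and 0.527) lay above all 3 Asxl1 guide libraries (0.025, 0 and 0), a difference of 0.593 (SE 0.0834, adjusted p = 0.000738). The order Asxl1 guide and control low, CSF3R intermediate, double high held without overlap at Runx1 and Elovl6, and at Prss34 only with IgG-overlapping peaks kept. For double against Asxl1 guide, the Elovl6 call was lost in 2 kb windows, over the peak itself and for any overlap. The Trib2 call was lost in 2 kb windows and for any overlap, and the Runx1 call for any overlap.

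Falls in double against Asxl1 guide lay near Rd3 (2 members), Map4k4 (2 members), a kinase of stress signalling, Tmem268 and Lipg, an endothelial lipase. The windows of the 2 Rd3 members overlap, so their calls are not separate. At the first Rd3 region, chr1:191955201-191955650, Rd3 being a retinal guanylate cyclase regulator, the fractions were 0.485 and 0.378 in double, 1, 0.89 and 1 in Asxl1 guide, 0.453, 0.41 and 0.228 in CSF3R and 0.845 and 0.723 in control libraries. The difference was -0.532 (SE 0.0776, adjusted p = 0.000893 by limma), and without peaks that overlap an IgG peak it turned to 0.2 with adjusted p = 0.334. Of the 22 calls, 10 held when each of the 10 libraries was left out in turn. With the log2 covered length of each library as a covariate, there were 1 higher and 2 lower calls, of which 2 were among the 22, at Elovl6 (0.563, adjusted p = 0.0163 by limma) and at 1 Map4k4 region, against 66 higher and 10 lower of all tested regions.

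H2AK119ub was higher with CSF3R than in control at 6 members, near Dnajb8, Elovl6, Naaa, Ptpn1, Stat5a and Trib2, (Stat5a passed the filter through CSF3R libraries only), and lower at 6, near Klf2 (2 members), Lipg (3 members) and Rd3, against 9.9% of all tested regions called, 7.82% higher and 2.09% lower. At the Klf2 region chr8:72322951-72323550 (Klf2 is a transcription factor of quiescence in lymphoid and myeloid cells) the fractions were 0.07, 0.35 and 0.135 with CSF3R and 0.595 and 0.605 in control, a difference of -0.415 (SE 0.0943, adjusted p = 0.0371 by limma). At Trib2 they were 0.432, 0.56 and 0.25 with CSF3R and 0.035 and 0.02 in control, a difference of 0.387 (SE 0.0834, adjusted p = 0.0325). The windows of the 2 Klf2 members overlap, so their calls are not separate. None of these 12 calls held in every fit that left out a library. The count was 0 without either control library or without the first Asxl1 guide library, 1 without the second, 2 without the third or without the third CSF3R library, and 6 without the second CSF3R library.

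Between double and CSF3R cells H2AK119ub was higher at 10 members and lower at 7, against 27% of all tested regions called, 18.8% higher and 8.25% lower. The falls included Stat5a, which encodes a main STAT of cytokine receptors, Notch3, Muc1 and Scrt1. At the Stat5a region, chr11:100858351-100858900 inside Stat5b, the fractions were 0 in both double and all 3 Asxl1 guide libraries, 0.245, 0.323 and 0.26 with CSF3R and 0.09 and 0.125 in control. This region passed the filter through CSF3R libraries only, and the Nos1ap region, among the rises, through double libraries only. At the region 48.7 kb from Notch3, a Notch receptor gene, double had 0.12 and 0.06 and CSF3R 0.47, 0.485 and 0.505, a difference of -0.397 (SE 0.0567, adjusted p = 0.00167 by limma). At the region 5.38 kb from Muc1, a transmembrane mucin gene, and inside Thbs3, double had 0.025 and 0 and CSF3R 0.305, 0.477 and 0.517, a difference of -0.421 (SE 0.0772, adjusted p = 0.00432). Lists covered 22.6 to 39.1 Mb in double and 18.8 to 28.7 Mb in CSF3R libraries. Without the first CSF3R library 6 members were called higher and 10 lower, without the second 10 and 6, and without the third 9 and 5. The median difference over the tested members was -0.0146 with all libraries, -0.0804 without the first double library and 0.0317 without the second. The rises were led by Stau2, an RNA-binding protein gene, at 0.86 and 0.463 in double against 0.03, 0.07 and 0.07 with CSF3R, a difference of 0.605 (SE 0.0989, adjusted p = 0.00268 by limma). Calls at Notch3, Stau2 and Muc1 held in all 10 fits that left out 1 library, and fewer members were called without the first double library. The Notch3 and Muc1 calls were lost in 2 kb windows, over the peak itself and for any overlap. The Stau2 call was lost over the peak itself and for any overlap.

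The effect of CSF3R on H2AK119ub differed between the guide backgrounds at 4 members, higher with the Asxl1 guide at each, against 12.1% of all tested regions called, 12% higher and 0.0869% lower. They lay near Elovl6, Nos1ap, Pmepa1 and Prss34. The Nos1ap region, inside the gene for a nitric oxide synthase adaptor, had 0.557 and 0.33 in double libraries and 0 in all 8 others, and so passed the filter through double libraries only. The Pmepa1 region, inside the gene for an inhibitor of TGF-beta signalling, had 0.27, 0.05 and 0.31 in Asxl1 guide libraries and 0.54 to 0.88 in the other 7. The interaction estimate at Pmepa1 was 0.707 (SE 0.142, adjusted p = 0.0187 by limma). That call was lost in 2 kb windows, over the peak itself, for any overlap, with the replicate block and with covered length as covariate. At Prss34 it was 0.528 (SE 0.144, adjusted p = 0.046 by limma), and 0.0283 with adjusted p = 0.938 without IgG-overlapping peaks. The count was 0 without the first control, second Asxl1 guide or first double library, 1 without the second control library, 2 without the first Asxl1 guide library and 10 without the second double library.

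**Figure D5:**
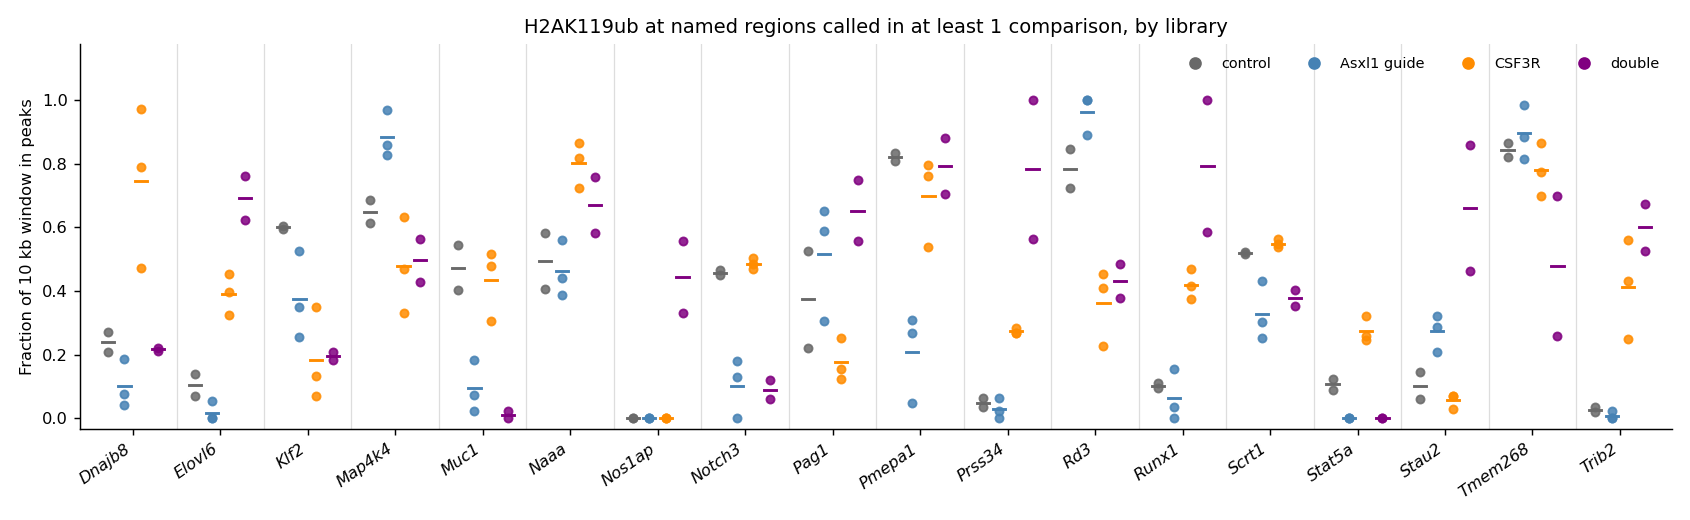
Fraction of the 10 kb window covered by H2AK119ub peaks (y axis) at members near 18 genes called in at least 1 comparison, 1 member per gene, with 1 point per library, coloured by group, and a bar at the group mean. Double points stand above all others at Prss34, Runx1, Stau2, Elovl6 and Nos1ap, and Stat5a, Notch3 and Muc1 are lower in Asxl1 guide and double than in control and CSF3R libraries.

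Some members carried Polycomb marks in most libraries of all genotypes. H3K27me3 reached 0.2 of the window in at least 8 of 10 libraries at 5 members, near Muc20 (mean fraction 0.425), Scrt1 (0.362), Mc1r (0.281) and Adam19 (0.189) among them. That is 0.493% of members, against 0.232% of all regions and 1.16% of those lost in double cells. H2AK119ub reached that level at 34 members (3.35%), against 1.34% of all regions and 2.89% of those lost in double cells. The 34 included Muc20 (0.827), Rd3 (0.799), Tmem268 (0.767) and Dnajb8 (0.745), with IgG-overlapping peaks kept. Without such peaks, the differences between double and Asxl1 guide at Muc20 and Rd3 reversed. Near Muc20, Scrt1 and Mc1r, 3 members reached the level for both marks. These shares were not tested. The Mc1r region lies at the start of its gene, the Tmem268 region holds its promoter, and the Muc20 region lies inside that gene, which encodes a mucin. The Adam19 member at chr11:46060401-46062200, inside the gene and 5.32 kb from an annotated start, was covered by H3K27me3 at 0.2 to 0.36 in 8 libraries and at 0 and 0.04 in the other 2.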

How the data were processed

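Peak lists of H3K4me1, H3K27me3 and H2AK119ub made by CUT&Tag with an EpiCypher kit, per the labels' protocols, from 30 libraries were used, 10 per mark, with 1 merged IgG list. The authors deposited peak positions only, in a unit with no reads, score or p-value, so depth is unknown and no counting interval can be given. Reads were aligned to mm10 with Bowtie2 2.4.1 and processed with deepTools 3.5, per the submitters' processing notes, and the peak caller is not given in the sources used here. Members follow from overlaps of at least 1 bp. The nearest gene is the nearest annotated start of a protein-coding RefSeq gene (GRCm38.p6, 21900 genes), or the nearest gene end for the 4408 genes whose start could not be placed. For H3K27me3 and H2AK119ub, the fraction of the 10 kb window centred on a region and covered by peaks was fitted with limma 3.58.1 (R 4.3.3) as 4 group means over 10 libraries, after a filter of 0.2 in at least 2 libraries, with Benjamini-Hochberg adjustment over all regions tested and a threshold of 0.05. The script was tested on simulated data.

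Alternatives were windows of 2 kb, the peak itself, any overlap, no filter, peaks without IgG overlap or under 500 bp, merged neighbouring peaks, covered length as a covariate, a replicate block and leaving out each library. The members, gene lists and naming rule were chosen with earlier results of these data known. Named were the 10 genes nearest to the most members, the 10 widest members, up to 4 rises and 4 falls per mark and comparison, up to 4 genes per list, up to 5 members with each Polycomb mark in at least 8 libraries, up to 5 widest members with a peak in 3 or 0 Asxl1 guide libraries, and members nearest Csf3r, Asxl1, Cebpe, Hoxa9, Meis1 or Myc. Gm and Rik genes were left out by that rule. The other names, among them those of promoters printed or listed and of Cd101, Saa3, Sirpb1c, Oscar, Lgals3, Trpm6, Prr5l and Tarm1, and genes given to complete a small count, were chosen after their values were seen. A result withheld for evaluation is not reported here.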

Additional observations from a re-analysis of the deposited data

Results flagged for a closer look

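At 4 regions the effect of CSF3R T618I on H2AK119ub differed between guide backgrounds by limma's test of the difference itself, with adjusted p under 0.05. The difference between the CSF3R effect with the Asxl1 guide and that with the non-targeting guide, in fractions of the 10 kb window, was 0.388 near Elovl6, 0.444 near Nos1ap, 0.707 near Pmepa1 and 0.528 near Prss34. At each the double libraries lay above the Asxl1 guide libraries without overlap. The Nos1ap region was at 0 in the 8 other libraries and passed the filter through double libraries only, so its test is no support. The Pmepa1 region overlaps an IgG peak, and its call held in 2 of the 7 alternatives that kept every library. At Elovl6 the call held in 3 of 8 such alternatives. The Prss34 value fell to 0.0283 (adjusted p = 0.938 by limma) without IgG-overlapping peaks, and its call was lost under all 8 alternatives that kept every library and held in 1 of 10 fits that left out a library. None of the 4 held in every fit that left out a library.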

How the results depend on the processing

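Counts are of members called by limma. H3K27me3 called 7 for CSF3R against control: 2 in 2 kb windows, 4 without peaks overlapping IgG, and 0 to 14 leaving out 1 library. For double against Asxl1 guide it called 0: 1 over the peak itself, 4 for any overlap, 4 with no filter, 3 with covered length as covariate, 1 with merged peaks, and 0 to 3 leaving out 1 library. For double against CSF3R it called 12: 5 in 2 kb windows, 19 with no filter and 0 to 22 leaving out 1 library. Its interaction called 0: 2 in 2 kb windows, 5 over the peak, 8 for any overlap, 5 with no filter and 0 leaving out any library. H2AK119ub called 12 for CSF3R against control: 2 in 2 kb windows, 5 over the peak, 5 without IgG overlap, 7 with no filter, 5 merged and 0 to 15 leaving out 1 library. For double against Asxl1 guide it called 22: 39 over the peak, 85 for any overlap, 14 without IgG overlap, 73 with no filter, 3 with covered length and 15 to 28 leaving out 1 library. For double against CSF3R it called 17: 8 in 2 kb windows, 34 for any overlap, 10 without IgG overlap, 51 with no filter and 9 to 16 leaving out 1 library. Its interaction called 4: 16 over the peak, 48 for any overlap, 2 without IgG overlap, 29 with no filter, 0 with covered length and 0 to 10 leaving out 1 library. Where a left-out library leaves 1 in its group, the lone sample is assumed to vary like the other groups. The causes were not tested.

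Whether replicate numbers pair the libraries was not settled. Correlations of same-numbered deviations ran from -0.215 to 0.344 for H3K27me3 and -0.066 to 0.081 for H2AK119ub over 13 pairs each. Of the H3K27me3 pairs, 2 exceeded 0.1, both of control with Asxl1 guide (0.289 and 0.344). Deviations from means of 2 or 3 libraries are tied to one another, so these correlations cannot exclude pairing. With the replicate block, H3K27me3 called 0 for CSF3R against control and 5 for double against CSF3R, and H2AK119ub 0 for CSF3R against control and 1 for the interaction.

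Of 1271 refits of the 74 called region-and-comparison pairs, 748 kept direction and call, 452 kept direction only, 62 had a difference of 0 and 9 reversed. Reversed H2AK119ub differences were 0.256 in 2 kb windows and 0.12 over the peak at Lipg (CSF3R against control) and, for double against Asxl1 guide, -0.09 without IgG overlap and -0.0625 with covered length at Fbxo28, and without IgG overlap -0.566 at Muc20 and 0.2 and 0.349 at Rd3. Reversed H3K27me3 differences were -0.0833 at Zcchc24 without IgG overlap (CSF3R against control) and 0.111 at Smap2 over the peak (double against CSF3R). The number of members, 1014, ranged from 1062 to 1434 leaving out 1 library of the rule. Members with a peak in at least 1 Asxl1 guide library, 277, were 129 at an overlap of at least 50% and 182 to 271 leaving out 1 library. Members near a start, 34, became 78 within 2.5 kb.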
